A study of Mus musculus with 22 samples.

Results

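The mouse genome carries 6 conventional actin genes, and all 6 were followed here in hearts whose right ventricle worked against a narrowed outflow. The genes were Acta1, Actc1, Acta2, Actg2, Actb and Actg1, found in the deposited tables by Ensembl identifier. They were 6 of 49670 genes in the right ventricle (RV) table and 6 of 49671 in the left ventricle (LV) table, and all 6 passed the filter of a mean value of at least 10 in both. The family was chosen by name, with the higher level of Acta1 in both banded ventricles already known from these libraries. The values of Acta1 and of the isoform shares are therefore given as a description, without a test.

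The nPAB group held 6 CD1 mice, an outbred stock, with neonatal pulmonary artery banding on postnatal day 1, the width of the band being set by a 30G needle. The Sham group held 5 CD1 mice with a sham operation on the same day. No genetic modification is given for either group, and hearts of both were taken 7 days after surgery. Each mouse gave a bulk RNA library of its RV and of its LV, 22 libraries in all.

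Actin is the protein of the thin filament, along which myosin pulls. It is made as closely related isoforms: Acta1 and Actc1 encode the skeletal and cardiac alpha-actins of striated muscle, Acta2 and Actg2 the actins of vascular and visceral smooth muscle, and Actb and Actg1 the cytoplasmic actins of all cells. Heart muscle of the adult mouse uses mainly Actc1, and Acta1 is a minor form known to increase when the heart is loaded. Serum response factor (SRF) binds CArG boxes near many actin genes, and its cofactors, the myocardin-related transcription factors (MRTFs), are held back by free actin monomers.

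All 6 genes lie on the minus strand in the mm10 build. Acta1 (ENSMUSG00000031972) occupies chr8:123891769-123894751, Actc1 (ENSMUSG00000068614) chr2:114047282-114053548 and Acta2 (ENSMUSG00000035783) chr19:34241090-34255590. Actg2 (ENSMUSG00000059430) occupies chr6:83512905-83536265, Actb (ENSMUSG00000029580) chr5:142903115-142906754 and Actg1 (ENSMUSG00000062825) chr11:120345690-120348542. Their coding sequences were 81.5% to 88.7% identical in nucleotides, and the closest pair was Actb and Actg1. Of all 50-base stretches of a member's transcripts, the percentage that also occurred in another gene was 0 for Actc1 and Actg2, 0.326% for Acta2, 2.02% for Acta1, 9.12% for Actb and 37.4% for Actg1. The Actg1 stretches were shared mainly with processed pseudogenes, of which Gm12715, Gm8399 and Actg-ps1 had values of at most 11.5, 34.1 and 6.09 in any library. How reads that match several places were counted is not given in the sources used here, so the level of Actg1, and less so that of Actb, is uncertain.

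RefSeq promoter windows (GRCm38.p6) were at hand for 4 of the 6 members: Acta1, Actc1, Acta2 and Actg1. The windows of Acta1, Actc1 and Actg1 are shown because the transcripts of these 3 genes were higher in banded RV and each window holds an exact CArG box. They are the bases outside annotated exons among the 250 before the start, read along the minus strand. The Acta1 window is chr8:123894776-123895025, that of Actc1 chr2:114052888-114053125 and that of Actg1 chr11:120348543-120348745. Capitals mark CArG boxes of 10 letters, exact or with 1 deviation in the 6 central A/T positions, and the motif reads alike on both strands.
Acta1: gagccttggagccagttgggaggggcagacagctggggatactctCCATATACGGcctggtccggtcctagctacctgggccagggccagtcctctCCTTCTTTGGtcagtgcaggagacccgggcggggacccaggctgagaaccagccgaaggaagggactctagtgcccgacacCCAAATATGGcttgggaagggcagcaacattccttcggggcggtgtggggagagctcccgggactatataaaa
Actc1: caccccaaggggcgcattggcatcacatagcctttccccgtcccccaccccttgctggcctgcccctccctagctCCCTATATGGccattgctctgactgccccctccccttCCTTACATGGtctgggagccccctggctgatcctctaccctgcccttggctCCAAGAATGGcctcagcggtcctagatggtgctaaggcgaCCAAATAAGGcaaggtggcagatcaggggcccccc
Actg1: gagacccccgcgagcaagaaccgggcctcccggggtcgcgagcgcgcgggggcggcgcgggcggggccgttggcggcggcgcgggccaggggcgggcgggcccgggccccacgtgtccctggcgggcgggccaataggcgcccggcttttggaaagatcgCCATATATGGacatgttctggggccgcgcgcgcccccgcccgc
In Acta1 the exact box is CCAAATATGG at bases -73 to -64 from the start, and the other 2 marked boxes carry a deviation. In Actc1 the exact box is CCAAATAAGG at bases -47 to -38, and the other 3 carry a deviation. In Actg1 the single box is CCATATATGG at bases -90 to -81. An exact box occurred in 482 of 32851 mouse promoter windows of the same length (1.47%), and a box with at most 1 deviation in 8.59%. The 3 windows shown were picked for holding an exact box, so these shares are no test of them. The Acta2 window held 0 exact boxes. The M-CAT letters CATTCC, searched on both strands, stood in the Acta1 window at bases -46 to -41, outside the CArG boxes, and in 12.6% of all windows. In Acta2, 217 of the 250 bases lie in annotated exons and none are shown, and those exon bases held 2 CArG boxes with a deviation and 1 M-CAT match. These matches describe letters only.

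Libraries held 7.11 to 11.3 M reads, with 8.65 to 10.3 M in RV nPAB, 7.43 to 10.7 M in RV Sham, 7.90 to 11.3 M in LV nPAB and 7.11 to 8.80 M in LV Sham. Both libraries of a mouse gave the same sex by Xist and the Y-linked gene Ddx3y in 9 of 11 mice. In nPAB mouse 6 the library labelled RV had Xist at 3040.0 and Ddx3y at 0, and the library labelled LV had Xist at 0.830 and Ddx3y at 1058. In nPAB mouse 7 the library labelled RV had Xist at 1.86 and Ddx3y at 1175, and the library labelled LV had Xist at 3323 and Ddx3y at 0. Each of these mice thus pairs libraries of both sexes. The members' log2 differences, the Acta1 shares and part of the counts of the pathway gene lists are given with and without them. The 6 ventricular cardiomyocyte markers summed to between 314276 and 555267 normalized read counts in each library. Of 15 skeletal muscle markers, 13 had a mean below 10 in each ventricle, and 5 in the RV and 6 in the LV were at 0 in all libraries, among them the myogenic factors Myod1 and Myog.

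Acta1 differed most of the members. In RV nPAB its normalized read count was 18187, 32729, 7897, 21232, 26045 and 23313 in mice 5, 6, 7, 8, 10 and 11. In RV Sham it was 269.8, 853, 259.6, 270.4 and 286 in mice 9 to 13. Every banded RV lay above every Sham RV. Sham mouse 10 stood above the other 4 Sham mice. The means were 21567 ± 8319.7 in RV nPAB (SD, n = 6) and 388 ± 260.2 in RV Sham (SD, n = 5), a 55.6-fold ratio. The log2 difference, nPAB minus Sham on the scale of log2(value + 1), was 5.86 ± 0.43 (SE), and 6.01 ± 0.38 without nPAB mice 6 and 7. Ranked by value within its library, Acta1 stood at a median of 28.5 (18 to 134) in RV nPAB and 5122 (1901 to 5270) in RV Sham.

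In the LV, whose outflow the band does not narrow, Acta1 was also higher, with more spread. LV nPAB values were 3184, 25090.3, 6708, 8430.3, 2254 and 1859 in mice 5, 6, 7, 8, 10 and 11. LV Sham values were 472, 1100.4, 251, 748 and 862 in mice 9 to 13. The groups did not overlap, and the library labelled LV of nPAB mouse 6 lay far above the other banded LV libraries. It lay within the range of banded RV, as did the LV library of nPAB mouse 8, near the lowest banded RV value of 7897. That lowest value belongs to the library labelled RV of nPAB mouse 7, and the next lowest banded RV was 18187. RV and LV values were normalized separately. The means were 7921 ± 8807 in LV nPAB (SD, n = 6) and 687 ± 332 in LV Sham (SD, n = 5), an 11.5-fold ratio. The log2 difference was 3.08 ± 0.71 (SE). Without mice 6 and 7 the LV nPAB mean was 3932 and the log2 difference 2.42 ± 0.59. The median rank of Acta1 was 297 (22 to 827) in LV nPAB and 2142 (1402 to 5317) in LV Sham.

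**Figure D1:**
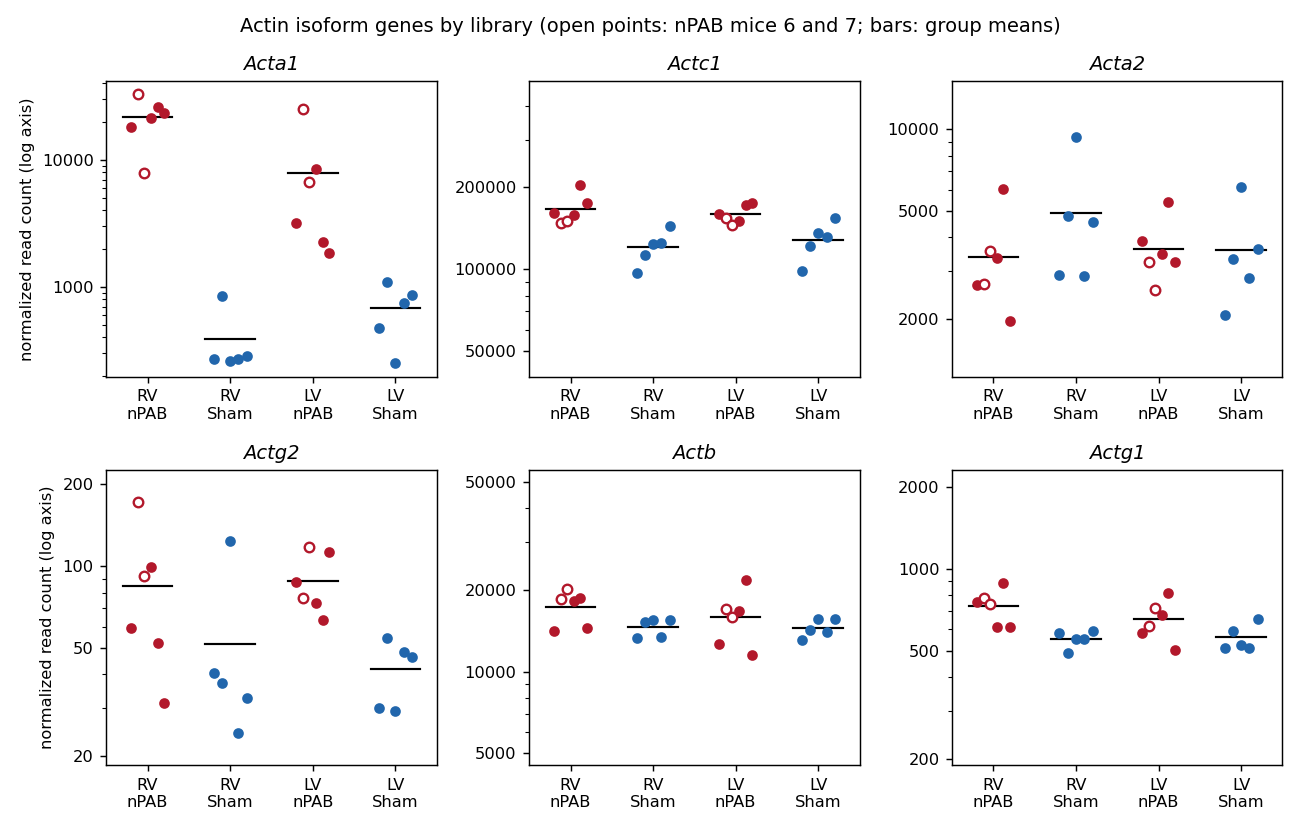
Normalized read counts of the 6 actin genes (log y axis), with 1 point per library, bars at group means and open points for nPAB mice 6 and 7. Acta1 separates nPAB from Sham in both ventricles, at 7897 to 32729 in RV nPAB against 259.6 to 853 in RV Sham, while Acta2 and Actb overlap between the groups.

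Actc1, the main sarcomeric actin of the heart, was called higher in banded RV. Its values ran from 148366 over a median of 159225 to 204885 in RV nPAB, and were 96712, 113037, 123364, 125219 and 143679 in RV Sham (mice 9 to 13). The groups did not overlap, at means of 166314 ± 21086 in RV nPAB (SD, n = 6) and 120402 ± 17243 in RV Sham (SD, n = 5), 1.38-fold. The log2 difference was 0.47 ± 0.10 (SE; limma, Benjamini-Hochberg adjusted p = 0.00230 over all genes), and 0.54 ± 0.11 without mice 6 and 7 (adjusted p = 0.00292).

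In the LV, Actc1 ran from 145745 over 156962 to 174812 in nPAB mice, and was 98109.8, 122242, 135979, 131776 and 154307 in Sham mice. These groups overlapped, with 4 of 6 nPAB libraries above the highest Sham library. The log2 difference was 0.32 ± 0.09 (SE; limma adjusted p = 0.0320). The call was lost without any one of Sham mice 9, 10 and 12 or nPAB mice 6, 10 and 11 (limma adjusted p 0.0516 to 0.0789). It was also lost without nPAB mice 6 and 7 together, at 0.37 ± 0.10 (limma adjusted p = 0.0609).

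Acta2, the vascular smooth muscle actin that activated fibroblasts also make, did not pass the test in either ventricle. RV nPAB values ran from 1971 over a median of 3018 to 6029, and RV Sham values were 2908, 4788, 9377, 2872 and 4542 in mice 9 to 13. LV nPAB values ran from 2561 over 3364 to 5384, and LV Sham values were 2072, 3318, 6139.7, 2846 and 3627. Sham mouse 11 was the highest library in both ventricles, and the groups overlapped in both. The log2 difference was -0.48 in the RV (95% interval -1.31 to 0.34, limma adjusted p = 0.404) and 0.07 in the LV (-0.54 to 0.68, limma adjusted p = 0.907). Without Sham mouse 11 it was -0.21 in the RV (limma adjusted p = 0.688) and 0.29 in the LV (0.444). Summed markers of smooth muscle, 7 genes without the actins, ran from 2658 to 3065 in RV nPAB and 2593 to 3214 in RV Sham, and from 2592 to 3239 in LV nPAB and 2425 to 2920 in LV Sham. Synpo2 and Smtn, at medians of 1535 and 678 over the RV libraries, made up most of the sum, beside 155 for Myh11. Singly, 1 of the 7 was called in the RV, Cnn1 (2.68 ± 0.50, SE). The 6 not called included Myh11 at -0.63 ± 0.32 and Tagln at 0.43 ± 0.29. In bulk tissue, fewer cells of a type and less RNA per cell cannot be told apart.

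Actg2, the actin of visceral smooth muscle, was called higher in banded LV. LV nPAB values were 87.3, 76.4, 118, 73.0, 63.4 and 112 in mice 5, 6, 7, 8, 10 and 11, and LV Sham values were 30.2, 54.4, 29.4, 48.4 and 46.3 in mice 9 to 13. The groups did not overlap, at means of 88.5 ± 22.3 in LV nPAB (SD, n = 6) and 41.7 ± 11.3 in LV Sham (SD, n = 5), 2.12-fold. The log2 difference was 1.07 ± 0.24 (SE; limma adjusted p = 0.00868), and 1.00 ± 0.28 without mice 6 and 7 (adjusted p = 0.0445).

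In the RV, Actg2 was at 59.1, 172, 92.1, 99.0, 52.0 and 31.4 in nPAB mice 5, 6, 7, 8, 10 and 11, and at 40.4, 37.3, 124, 24.3 and 32.9 in Sham mice 9 to 13. Sham mouse 11 exceeded 5 of 6 banded libraries there. The log2 difference of 0.75 ± 0.44 (SE) did not pass (limma adjusted p = 0.256). It was 1.12 without Sham mouse 11, where it passed (limma adjusted p = 0.0422), and 0.36 without nPAB mice 6 and 7 (adjusted p = 0.613).

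Of the cytoplasmic actins, Actb, beta-actin, ran from 14084 over a median of 18382 to 20113 in RV nPAB and was 13286, 15200.1, 15480.2, 13356 and 15540.5 in RV Sham (mice 9 to 13). The groups overlapped, and the log2 difference of 0.24 ± 0.09 (SE) did not pass (limma adjusted p = 0.0738). It passed without nPAB mouse 5 (adjusted p = 0.0231 by limma) or nPAB mouse 11 (0.0294). In the LV, Actb ran from 11546 over 16254 to 21658 in nPAB mice and was 13063, 14266, 15620, 14052 and 15567 in Sham mice. The LV difference was 0.10 (95% interval -0.18 to 0.38, limma adjusted p = 0.685).

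Actg1, the cytoplasmic gamma-actin, was called higher in banded RV. RV nPAB values were 756, 779, 742, 613, 890.2 and 610.2 in mice 5, 6, 7, 8, 10 and 11, and RV Sham values were 581, 492, 552, 553 and 590.4 in mice 9 to 13. The groups did not overlap, and the means were 732 ± 107 in RV nPAB (SD, n = 6) and 554 ± 38.3 in RV Sham (SD, n = 5), 1.32-fold. The log2 difference was 0.39 ± 0.10 (SE; limma adjusted p = 0.00998), and 0.36 ± 0.12 without mice 6 and 7 (adjusted p = 0.0379). In the LV the values ran from 502 over 646 to 817 in nPAB mice and were 509, 593, 527, 511 and 657 in Sham mice, with overlap and a log2 difference of 0.21 ± 0.12 (limma adjusted p = 0.270).

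Besides Acta1, 2 of 5 members were called in the RV, Actc1 and Actg1, and 2 of 5 in the LV, Actc1 and Actg2, each higher in nPAB. Over all 13660 genes tested in the RV, 22.0% were called, 11.1% higher and 10.8% lower in nPAB. Over the 13528 genes tested in the LV, 9.31% were called, 4.76% higher and 4.55% lower. The groups did not overlap in 12.9% of RV genes, where 2 of these 5 members had no overlap, and in 6.53% of LV genes, where 1 of 5 had none. The family is too small to be set apart from that background by these counts. Without mice 6 and 7, the differences that had not passed were -0.47 for Acta2 and 0.16 for Actb in the RV, and 0.22 for Acta2, 0.06 for Actb and 0.19 for Actg1 in the LV, with limma adjusted p between 0.243 and 0.870.

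**Figure D2:**
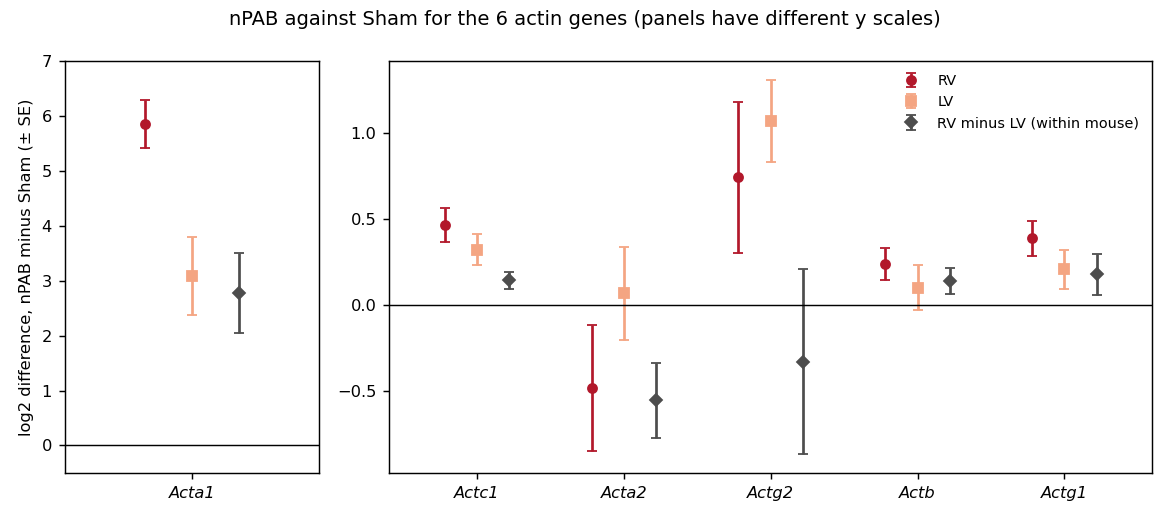
Log2 differences, nPAB minus Sham, with standard errors for the 6 actin genes in the RV, in the LV and as RV minus LV within a mouse, with Acta1 on a y axis of its own. Acta1 lies at 5.86 in the RV and 3.08 in the LV, and the others lie between -0.55 and 1.07.

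The share of each member in the summed actin counts of a library describes the actin mixture. Acta1 made up 9.26%, 16.1%, 4.30%, 10.5%, 10.2% and 10.8% of summed actin in RV nPAB (mice 5, 6, 7, 8, 10 and 11), against 0.237%, 0.635%, 0.174%, 0.190% and 0.174% in RV Sham (mice 9 to 13). In the LV it made up 1.77%, 12.5%, 3.91%, 4.70%, 1.12% and 0.968% in nPAB mice, against 0.413%, 0.777%, 0.158%, 0.499% and 0.492% in Sham mice. Neither ventricle's groups overlapped. The mean share was 10.2 ± 3.77% in RV nPAB and 0.282 ± 0.199% in RV Sham, and 4.16 ± 4.37% in LV nPAB and 0.468 ± 0.221% in LV Sham (SD, n = 6 nPAB and 5 Sham). Without mice 6 and 7 it was 10.2% in RV nPAB and 2.14% in LV nPAB.

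Actc1 stayed the bulk of actin, at 79.4 ± 3.46% in RV nPAB and 85.4 ± 2.20% in RV Sham, and 85.1 ± 4.78% in LV nPAB and 86.8 ± 1.13% in LV Sham. In the RV every nPAB share of Actc1 (73.0% to 82.3%) lay below every Sham share (82.7% to 88.0%), although its normalized count was higher. With Acta1 left out of the sum, the Actc1 share was 88.5% in RV nPAB and 85.6% in RV Sham. The order of the groups thus depends on whether Acta1 is counted in the total.

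The other shares were smaller. Actb made up 8.38 ± 1.62% of summed actin in RV nPAB and 10.4 ± 1.05% in RV Sham, and 8.45 ± 1.70% in LV nPAB and 9.92 ± 0.959% in LV Sham. With Acta1 left out of the sum, Actb made up 9.32% in RV nPAB and 10.5% in RV Sham, and 8.84% in LV nPAB and 9.97% in LV Sham. Acta2 made up 1.59 ± 0.508% of the full sum in RV nPAB and 3.44 ± 1.69% in RV Sham, and 1.93 ± 0.434% in LV nPAB and 2.40 ± 0.848% in LV Sham. Without Acta1 in the sum its share was 1.77% in RV nPAB and 3.45% in RV Sham, and 2.01% in LV nPAB and 2.41% in LV Sham. Of the full sum, Actg1 was between 0.261% and 0.510% in every library and Actg2 between 0.0146% and 0.0849%. Within the cytoplasmic pair, Actb supplied 95.9% of counts in RV nPAB and 96.3% in RV Sham, and 96.0% in LV nPAB and 96.3% in LV Sham.

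The 6 genes together took 2.27 ± 0.254% of reads in RV nPAB (SD, n = 6) and 1.63 ± 0.213% in RV Sham (SD, n = 5), without overlap. In the LV they took 2.09 ± 0.145% in nPAB mice and 1.71 ± 0.248% in Sham mice, with overlap. Mean summed actin was higher in RV nPAB than in RV Sham by 68547 normalized read counts, of which Actc1 made up 67.0%, Acta1 30.9% and Actb 4.04%, with Acta2 at -2.22%. In the LV it was higher by 39682, of which Actc1 made up 77.9% and Acta1 18.2%. Without mice 6 and 7 the Acta1 part was 28.5% in the RV and 8.03% in the LV. Although Acta1 had the larger fold difference, Actc1 contributed more transcripts to the difference in each ventricle.

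Levels of different genes were compared per kb of exon. Actc1 led in each group, with a mean normalized read count per kb of 102790 in RV nPAB and 74414 in RV Sham, and 98515 in LV nPAB and 79408 in LV Sham. Acta1 was the second gene in RV nPAB, at 14041 ± 5416.5 per kb (SD), ahead of Actb at 6472 ± 919, and their ranges overlapped. In RV Sham it was the fourth by mean, at 252 ± 169, behind Actb at 5439.6 ± 429 and Acta2 at 2230.2 ± 1210.4. Its range overlapped that of Actg1 at 208 ± 14.4. Its place ahead of Actg1 there rested on Sham mouse 10, at 555 for Acta1 and 185 for Actg1. In Sham mice 9, 11, 12 and 13 Acta1 lay below Actg1.

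In LV nPAB, Acta1 was the third gene per kb, at 5157 ± 5734, with a range that overlapped those of Actb at 5926 ± 1342 and Acta2 at 1655 ± 437. In LV Sham it was the fourth, at 447 ± 216, and overlapped Actg1 at 210.5 ± 24.2. Actg2 was last in each group, at 54.2 in RV nPAB and 33.2 in RV Sham, and 56.8 in LV nPAB and 26.8 in LV Sham. The ratio of Acta1 to Actc1 per kb ran from 0.0551 to 0.232 in RV nPAB and 0.00210 to 0.00795 in RV Sham, and from 0.0112 to 0.171 in LV nPAB and 0.00194 to 0.00948 in LV Sham. Even the highest ratio left Actc1 the more abundant striated actin.

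**Figure D3:**
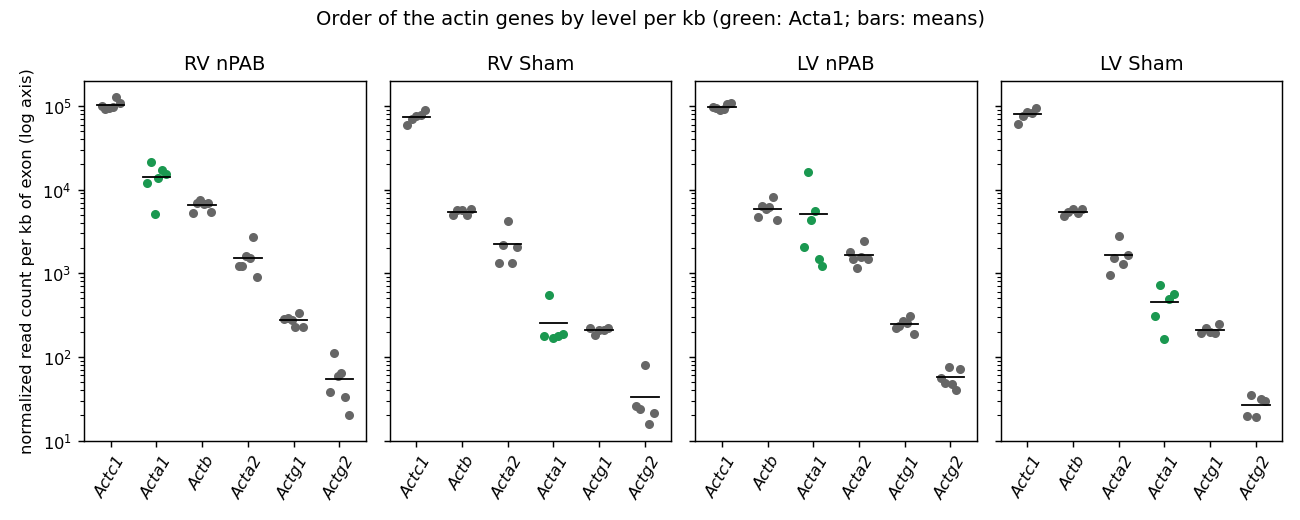
Normalized read counts per kb of exon (log y axis) of the 6 genes in each group, ordered from high to low mean, with 1 point per library and bars at means. By mean, Acta1, in green, is the second gene in RV nPAB, the third in LV nPAB and the fourth in both Sham groups, in RV Sham only through Sham mouse 10.

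The ventricles were compared within each mouse, as log2 of the RV value minus log2 of the LV value, nPAB against Sham. For Acta1 this difference was 2.78 ± 0.73 (SE), and 3.59 ± 0.58 without mice 6 and 7. Crossing the LV libraries of those mice keeps each library in its labelled ventricle. It therefore cannot change this mean difference, only its SE, which was then 0.92. A mislabelled ventricle could change the mean difference and was not tested. The Acta1 share was higher in the RV than in the LV in 6 of 6 nPAB mice and in 1 of 5 Sham mice. It was higher in the RV of 4 of 4 nPAB mice with mice 6 and 7 left out, and of 5 of 6 with their LV libraries crossed. In nPAB mouse 11 it was 10.8% in the RV and 0.968% in the LV, whereas in nPAB mouse 7 it was 4.30% in the RV and 3.91% in the LV.

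The other 5 members did not pass the limma test of the difference between ventricles, which called 1.11% of 13364 genes, and 2 of them, Actc1 and Acta2, had an unadjusted p under 0.05. Actc1 differed by 0.15 ± 0.05 (SE; limma adjusted p = 0.175). Without mice 6 and 7 it passed, at 0.18 ± 0.05 (limma adjusted p = 0.0387), in a fit that called 3.75% of 13356 genes. Acta2 differed by -0.55 ± 0.22 (limma adjusted p = 0.323), and by -0.68 without mice 6 and 7 (0.129). Its share was higher in the RV than in the LV in 1 of 6 nPAB mice and in 5 of 5 Sham mice.

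For Actg2 the difference between ventricles was -0.33 (95% interval -1.47 to 0.81, limma adjusted p = 0.887), and its sign turned without Sham mouse 11 (0.16). For Actb it was 0.14 (-0.02 to 0.30, limma adjusted p = 0.472) and for Actg1 0.18 (-0.07 to 0.43, limma adjusted p = 0.595). Without nPAB mice 6 and 7 the values were -0.65 for Actg2, 0.09 for Actb and 0.17 for Actg1, with limma adjusted p between 0.606 and 0.648. These intervals include differences of either sign.

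**Figure D4:**
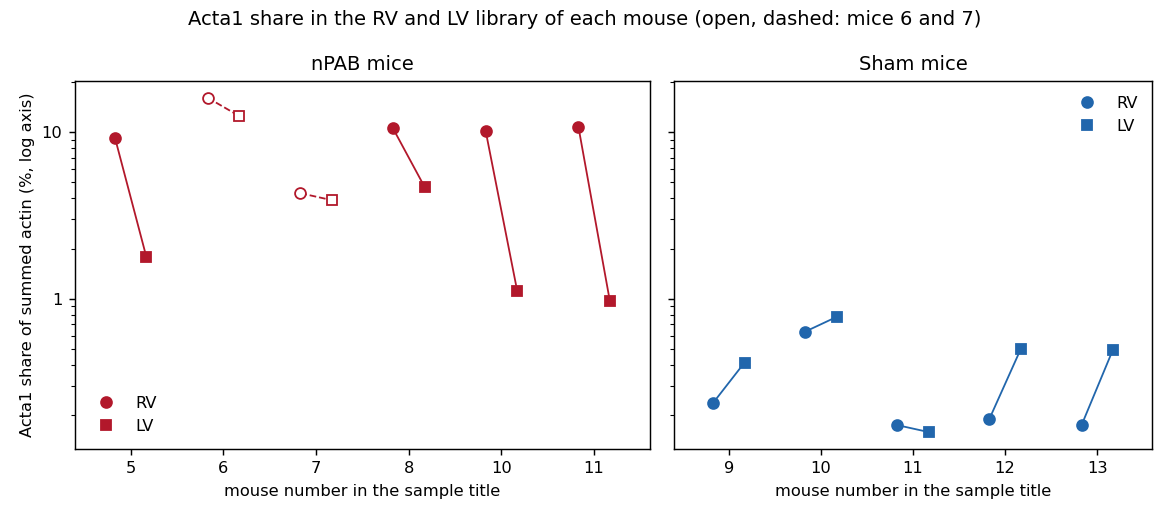
Acta1 share of summed actin counts (percent, log y axis) in the RV (circles) and LV (squares) library of each mouse, with open symbols and dashed lines for nPAB mice 6 and 7. The RV lies above the LV in 6 of 6 nPAB mice and in 1 of 5 Sham mice.

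The genes that ran most like Acta1 were named by the mean of the Pearson correlations over 11 RV and over 11 LV libraries, among 9752 genes. The libraries of a correlation fall into both treatment groups, so it also carries the difference between them and is a description. Xirp2, an actin-binding protein of intercalated discs, came first at 0.969, with mean normalized read counts of 32547 in RV nPAB and 2069 in RV Sham, and 14274 in LV nPAB and 4567 in LV Sham. Nppa, the precursor of atrial natriuretic peptide, followed at 0.966, with means of 4348 in RV nPAB and 62.3 in RV Sham, and 1721 in LV nPAB and 200.4 in LV Sham. Tpm2, the beta-tropomyosin that lies along the filament, had 0.961, with means of 1619 in RV nPAB and 299.96 in RV Sham, and 852 in LV nPAB and 378 in LV Sham. Prnp, the prion protein gene, had 0.947 and Slc16a3, a lactate transporter, 0.946.

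The other members had other nearest genes. For Actc1 they were Letm1 (mean correlation 0.910), Tnnc1 (0.904), which encodes the calcium-binding troponin of the heart, and Psmc4 (0.897), a proteasome subunit. For Actb they were Tpm4 (0.844), Pea15a (0.843) and Golt1b (0.841), and for Actg1 Tpm4 (0.888), Bag2 (0.854) and Rhoc (0.853). Tpm4, a cytoplasmic tropomyosin, headed the list of both cytoplasmic actins. The smooth muscle actins had weaker likenesses: Acta2 had Smarce1 (0.792), Zdhhc21 (0.765) and Ubtd2 (0.742), and Actg2 had Bckdk (0.826), Il1r1 (0.807) and Smndc1 (0.769).

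A list of 25 genes known as targets of SRF and MRTFs, with the actins left out, was chosen with earlier results of these data known. The shares of all genes therefore stand beside its counts as a description, not as a test. Of the 25, 19 were called higher in banded RV, where 11.1% of all genes were, and the other 6 were not called. Their median log2 difference was 0.64, beside 5.16e-05 over all genes tested. Cnn1, a calponin that binds actin, differed by 2.68 ± 0.50 (SE), Tpm2 by 2.35 ± 0.29 and Fhl1, a LIM protein of the sarcomere, by 1.84 ± 0.26. Tagln2, a calponin-related protein, differed by 0.74 ± 0.10, zyxin (Zyx) by 0.64 ± 0.10 and integrin beta 1 (Itgb1) by 0.54 ± 0.09. In the LV 12 of 25 were called higher, where 4.76% of all genes were, and 13 were not called, with a median of 0.34 beside -0.0077 over all genes. Fhl1 differed there by 0.99 ± 0.11, Tpm2 by 1.10 ± 0.23 and Zyx by 0.54 ± 0.13.

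Without nPAB mice 6 and 7, 17 of the 25 targets were called higher in the RV, where 10.5% of all genes were, and 5 of 25 in the LV, where 2.58% of all genes were. In the difference between ventricles 1 of the 25, Cnn1, was called, at 1.74 ± 0.38 (SE; limma adjusted p = 0.0143), where 1.11% of all genes were. With mice 6 and 7 left out, 4 of 25 were called, where 3.75% of all genes were. Cnn1 is also 1 of the 7 smooth muscle markers given above, and the only 1 of them called in the RV or in the LV.

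**Figure D5:**
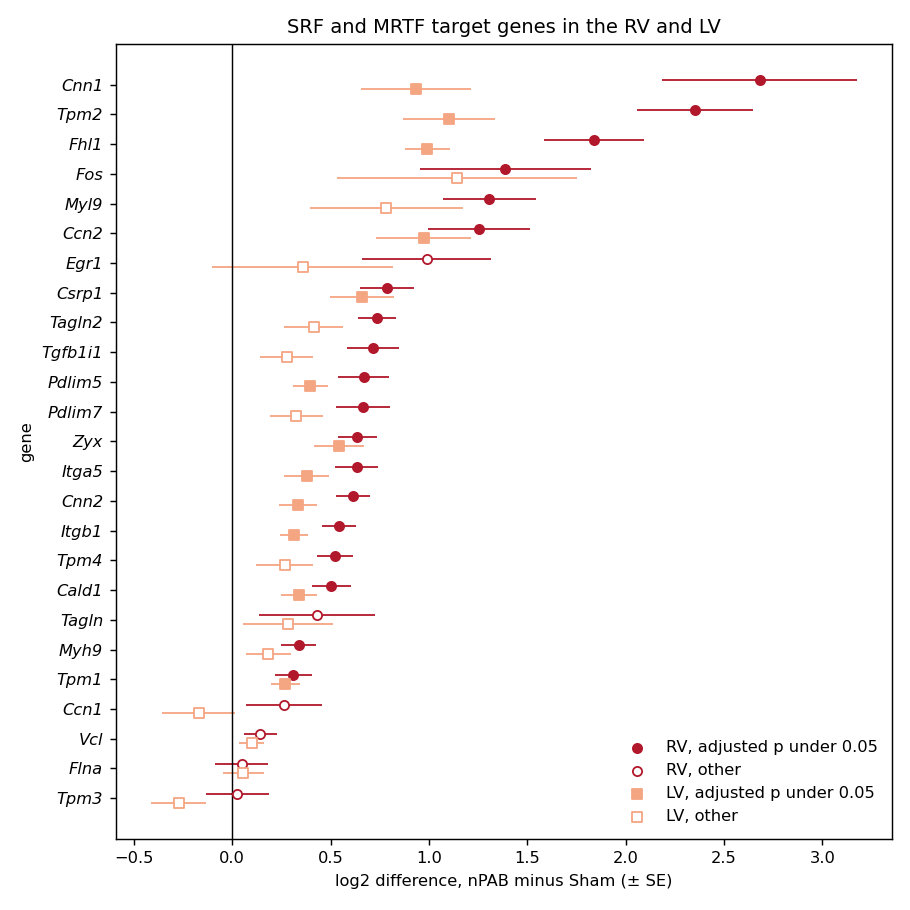
Log2 differences, nPAB minus Sham, with standard errors for 25 SRF and MRTF target genes in the RV (circles) and LV (squares), filled where the limma adjusted p over all genes is under 0.05. In the RV 19 of 25 are filled and lie above 0, and in the LV 12 of 25.

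The lists that follow were also chosen with earlier results of these data known, and their counts are a description. They are read against the share of all genes called, 11.1% higher and 10.8% lower in the RV and 4.76% higher and 4.55% lower in the LV. For counts without nPAB mice 6 and 7 the shares were 10.5% higher in the RV and 2.58% higher in the LV. Either way, 20.4% and 4.93% were called there. Among SRF and 9 of its cofactors and regulators, 1 was called higher and 1 lower in the RV, and 2 higher in the LV (1 without nPAB mice 6 and 7). Abra, an actin-binding activator of MRTF signalling in striated muscle, had means of 239 in RV nPAB and 79.7 in RV Sham, and 192 in LV nPAB and 94.5 in LV Sham, with log2 differences of 1.505 ± 0.29 and 0.90 ± 0.24 (SE). Srf was called higher in the LV (0.55 ± 0.13, limma adjusted p = 0.0109), and its RV difference was 0.13 ± 0.13 (limma adjusted p = 0.507). The difference of Srf between ventricles did not pass (limma adjusted p = 0.282). Hopx, a homeodomain protein known to restrain SRF, was called lower in the RV (-0.51 ± 0.16) and not called in the LV (0.15 ± 0.18). Its difference between ventricles passed (-0.65 ± 0.08, limma adjusted p = 8.27e-05). So did that of Fhl2, a LIM cofactor (-0.82 ± 0.14, limma adjusted p = 0.0128). Fhl2 was called in neither ventricle alone, at -0.37 ± 0.23 in the RV and 0.45 ± 0.23 in the LV. Myocd, Mrtfa and Mrtfb had RV differences of 0.02, 0.27 and -0.20 and did not pass.

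Of 23 genes that bind monomers or turn filaments over, 8 were called higher and 1 lower in the RV, beside 11.1% and 10.8% of all genes. In the LV 2 were called higher and 1 lower, near the 4.76% and 4.55% of all genes. Without nPAB mice 6 and 7, 9 were called higher in the RV and 2 in the LV, beside 10.5% and 2.58% of all genes. Wdr1, a cofactor of filament disassembly, differed by 1.18 ± 0.12 in the RV and 0.63 ± 0.10 in the LV (SE). Coro6, a coronin, differed by 0.80 ± 0.09 in the RV and 0.31 ± 0.07 in the LV. Cfl2, the muscle cofilin that severs filaments, differed by 0.59 ± 0.08 in the RV and by 0.22 ± 0.07 in the LV, where it was not called. Both Coro6 and Cfl2 were called in the difference between ventricles, with limma adjusted p of 0.00295 and 0.0202.

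Of 26 nucleation genes tested, 7 were called higher and 1 lower in the RV, beside 11.1% and 10.8% of all genes. In the LV 2 were called higher and 1 lower, near the 4.76% and 4.55% of all genes. Leaving out nPAB mice 6 and 7 gave 7 higher and 1 lower in the RV, where 20.4% of all genes were called either way. In the LV it gave 1 higher and 1 lower, where 4.93% of all genes were called either way. The Arp2/3 subunits Arpc5 (0.59 ± 0.10 in the RV, 0.46 ± 0.10 in the LV) and Arpc2 (0.37 ± 0.08 in the RV, 0.22 ± 0.06 in the LV) were called higher in both ventricles. The formin Fmn1 was called lower in both, at -0.67 ± 0.11 in the RV and -0.70 ± 0.10 in the LV. Of 12 genes that cap thin filaments or set their length, 3 were called higher and 1 lower in the RV, and 1 higher and 1 lower in the LV (1 higher and 2 lower without nPAB mice 6 and 7). With 12 genes these counts are not set apart from the shares of all genes. Lmod2, a leiomodin that elongates cardiac thin filaments, differed by 0.53 ± 0.10 in the RV and 0.40 ± 0.10 in the LV, while Nebl was called lower in the RV (-0.28 ± 0.08) and Lmod3 in the LV (-0.57 ± 0.10).

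Of 13 crosslinkers tested, 5 were called higher in the RV, beside 11.1% of all genes, and 2 in the LV, beside 4.76%. Leaving out nPAB mice 6 and 7, 1 was called higher in the LV, beside 2.58%. With all mice the Z-disc alpha-actinin Actn2 was called higher in both ventricles (0.52 ± 0.07 in the RV, 0.28 ± 0.06 in the LV). Of 19 genes for actin folding and modification, 7 were called higher in the RV, beside 11.1% of all genes, and 4 in the LV, beside 4.76%. Without nPAB mice 6 and 7 these were 6 in the RV and 2 in the LV, beside 10.5% and 2.58% of all genes. Pfdn1, a subunit of the prefoldin that hands actin to its chaperonin, differed by 0.57 ± 0.09 in the RV and 0.36 ± 0.08 in the LV. Mical2, which oxidizes actin, differed by 0.78 ± 0.13 in the RV and 0.49 ± 0.09 in the LV. Of 10 actin-related proteins tested, 2 were called higher and 1 lower in the RV, beside 11.1% and 10.8% of all genes, Actr1a at 0.49 ± 0.09, Actr1b at 0.28 ± 0.08 and Actr3b at -0.55 ± 0.14. In the LV limma called 0 of the 10, as did edgeR and DESeq2, and 2 had an unadjusted limma p under 0.05.

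Markers of other cells are given beside these values, and their part in the results was not tested. The 15 skeletal muscle markers summed to 89.6 to 248 in RV nPAB and 62.2 to 147 in RV Sham, and to 64.1 to 197 in LV nPAB and 80.7 to 246 in LV Sham. Of that list Myh8, a perinatal myosin heavy chain, was called higher in the RV, at 16.3 to 31.2 in RV nPAB and 2.19 to 13.5 in RV Sham. The 4 atrial markers summed to 737 to 9777 in RV nPAB and 161 to 2474 in RV Sham, and to 351 to 2081 in LV nPAB and 477 to 1465 in LV Sham. The 4 epicardial markers summed to 295 to 552 in RV nPAB and 155 to 311 in RV Sham, and to 162 to 378 in LV nPAB and 155 to 285 in LV Sham.

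Ventricular cardiomyocyte markers summed to 314276 to 434454 in RV nPAB and 366930 to 451447 in RV Sham, and to 354406 to 555267 in LV nPAB and 427028 to 466914 in LV Sham. In the RV 3 of 6 (Pln, Tnni3 and Ryr2) were called lower, beside 10.8% of all genes. The other 3 were not called, with log2 differences of -0.16 for Myh6, 0.16 for Myl2 and 0.19 for Tnnt2. In the LV 0 of the 6 were called. Of 6 fibroblast markers 1, Pdgfra, was called lower in the RV, and the sums were 24467 to 37648 in RV nPAB and 33549 to 43241 in RV Sham. Of 6 pericyte markers 1 was called higher and 1 lower in each ventricle, Cspg4 and Abcc9 in the RV and Notch3 and Abcc9 in the LV. Abcc9 had a mean of 11235 in RV Sham, beside 15975 for Rgs5 and 357 for Kcnj8 of the same list. Which cells its transcripts came from was not tested. Endothelial markers summed to 8437 to 9921 in RV nPAB and 8651 to 9940.5 in RV Sham, and macrophage markers to 358 to 844 in RV nPAB and 471 to 1045 in RV Sham.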

How the data were processed

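Bulk RNA libraries of the RV and LV of 6 nPAB and 5 Sham mice were grouped by title, and the number in the title names the mouse. The values the authors deposited are a signal per gene, read counts divided by a size factor, in separate RV and LV tables made, per the submitters' processing notes, with cutadapt, featureCounts and DESeq2 on mm10. The aligner, and how reads with several matches were handled, is not given in the sources used here. All values in each library were whole multiples, within 0.001, of what 1 read is worth there, which gave the depths.

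Tests used limma 3.58.1 (R 4.3.3; trend and robust, two-sided) on log2(value + 1) for genes whose mean value reached 10, each ventricle alone, and on RV minus LV within a mouse, with Benjamini-Hochberg adjustment over all genes and a threshold of 0.05. Numbers 10 and 11 occur in both treatments and there name different mice, and the labels do not describe litters or cages. As a check of the pairing, deviations from the group mean correlated at 0.132 to 0.383 between the ventricles of 9 mice, and each of these 9 correlated best with its own number. In nPAB mouse 6 the correlation was 0.172 and the best with another number 0.180, and in nPAB mouse 7 these were 0.0548 and 0.0844. The scripts were tested on simulated data. Exon lengths came from GENCODE and promoters from RefSeq.

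The members and lists were chosen with earlier results of these data known. Named genes are the members, up to 4 of each list with the smallest p in the RV and in the LV fit, and the nearest genes by correlation among those with a mean of at least 50. Alternatives were edgeR 4.0.16 and DESeq2 1.42.0 on recovered reads, other pseudocounts (0.5 and 5), no filter, plain limma, each mouse left out and nPAB mice 6 and 7 left out or crossed.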

Additional observations from a re-analysis of the deposited data

Results flagged for a closer look

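In 8 of 48 groups of libraries examined, over 2 quantities (the normalized read count and the share of summed actin), 1 library stood far from the others of its group. Chance flags about 1 in 20 groups, and a count and its share are not independent. The library labelled LV of nPAB mouse 6 stood apart in Acta1, with a normalized read count of 25090.3 and a share of 12.5%. The Xist and Ddx3y values of that mouse differ between its libraries, and the part of this in the result was not tested. Sham mouse 10 stood apart in RV Acta1, at 853 and 0.635%, and it also had the highest Acta1 of the LV Sham libraries. Sham mouse 11 stood apart in RV Actg2, at 124 and 0.0830%, and in the LV share of Acta2, at 3.87%. Sham mouse 9 stood apart in the RV share of Actg1, at 0.510%.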

How the results depend on the processing

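The RV count of called genes (2999) ran from 2541 to 3354 under 8 other settings and from 2399 to 3015 with 1 mouse left out. The LV count (1260) was 739 with limma without trend and robust, 668 without nPAB mice 6 and 7, 1680 with DESeq2, and 841 to 1290 with 1 mouse left out. The RV minus LV count (148) was 1 with limma without trend and robust, 249 with DESeq2, 501 without nPAB mice 6 and 7, and 63 with their LV libraries crossed, a setting chosen after seeing the data. It ran from 80 to 393 with 1 mouse left out, 393 being without nPAB mouse 7. Without the replicate block, so that the pairing within a mouse was ignored, it was 5. The causes were not tested. In the LV, Actc1 lost its call with no filter (limma adjusted p = 0.168) and with limma without trend and robust (0.123). The LV difference of Acta2 ran from -0.11 to 0.29 with 1 mouse left out, turning to -0.11 without Sham mouse 9 and -0.05 without nPAB mouse 10, and the RV minus LV difference of Actg2 from -0.61 to 0.16. The Actc1 share was 88.5% in RV nPAB with Acta1 left out of the sum, and per kb it was 90.1% in RV Sham and 91.1% in LV Sham. RV calls of Actc1 and Actg1 and the LV call of Actg2 held under all settings run. Actg2, at 24.3 to 172 normalized read counts, is the member that depth limits most.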
